A study of Homo sapiens with 2 samples.

Results

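NEAT1 is the long noncoding RNA around which paraspeckles, a class of nuclear body, are built, and 17 of the 6754 SRSF1 crosslink sites in this study lay on it (0.252% of the list). The sites were chosen by position: plus strand of chromosome 11, interval midpoint from 65190200 to 65213100 (hg19), a window of 22901 nt. The name rests on these positions and was not checked against an hg19 annotation. NEAT1 was picked for study because it held many sites, so their number is a description and has no test. The data are 2 HITS-CLIP libraries of SRSF1, numbered as replicates 1 and 2 of 1 group, from H1299 cells, an established human lung carcinoma line, with no treatment or genetic change named in the labels. The authors deposited 1 list for both replicates and the labels give no control library, so no value below has a replicate spread or a background, and the total depth of each library is unknown.

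In HITS-CLIP, ultraviolet light joins a protein to the RNA it touches, and the RNA pieces recovered with the protein, called tags, are sequenced. Where a remnant of the protein stops the reverse transcriptase, tags pile up at a truncation site. Where the enzyme reads through and errs, tags carry a mutation site. SRSF1 is an SR-family splicing factor whose known binding sequences are rich in purines.

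NEAT1 is made as isoforms with a common start. The short isoform is polyadenylated, while the long isoform runs on through the whole locus and is the one needed to build a paraspeckle. Paraspeckles assemble around it with proteins such as SFPQ, NONO and PSPC1 and can hold RNA and proteins in the nucleus. The first 3.7 kb of the window was taken as shared by both isoforms, and the other 19.2 kb as the long isoform alone. This division was not checked against an annotation. A tag from the first stretch cannot be assigned to either isoform, and more copies of an RNA and more binding per copy cannot be told apart without a measure of RNA level.

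From the sequence of the long isoform, 2 pieces of 120 nt are printed as examples. They are the pieces of the first 3.7 kb and of the rest with the most matches to GGAGA or GGAGGA, a pair of purine words of the kind SRSF1 is known to bind. They come from the GENCODE release 29 transcript NEAT1-202 (22743 nt) and are numbered from its first base, written with T for U; capitals mark the matches.
NEAT1-202 bases 1193 to 1312, within the first 3.7 kb: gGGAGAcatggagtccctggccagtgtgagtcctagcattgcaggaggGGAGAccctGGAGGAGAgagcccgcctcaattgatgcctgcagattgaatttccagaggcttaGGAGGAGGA
NEAT1-202 bases 4323 to 4442, within the rest: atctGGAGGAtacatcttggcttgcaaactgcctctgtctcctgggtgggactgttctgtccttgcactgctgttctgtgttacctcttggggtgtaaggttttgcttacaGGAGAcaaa
The first piece held 6 matches, some of them overlapping, and the second held 2. Both were picked for having the most matches, so they do not show the composition of a whole stretch. The transcript set is on GRCh38 and the sites are on hg19, so the sites were not placed on these bases, and neither piece is offered as a crosslinked sequence.

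Sites clustered at the 5′ end of NEAT1. The first 3.7 kb held 12 of the 17 sites (70.6%, exact Clopper-Pearson 95% interval 44.0 to 89.7%) in 16.2% of the window. This was 3.24 sites per kb against 0.260 per kb over the rest, a ratio of 12.5 (exact 95% interval 4.08 to 45.1). With stricter sites alone (deposited P-value at most 1e-05, or at least 3 mutated tags), 8 sites in the first stretch and 1 in the rest were left, and the ratio was 41.5 (5.57 to 1842). Truncation sites were the more uneven kind in these counts: 10 lay in the first stretch and 2 in the rest, a density ratio of 25.9 (5.53 to 244). Mutation sites numbered 2 and 3, and their density ratio of 3.46 had an interval from 0.289 to 30.2, so a difference in either direction was not detectable for them. These intervals treat sites as units of 1 list and cover counting error only.

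**Figure D1:**
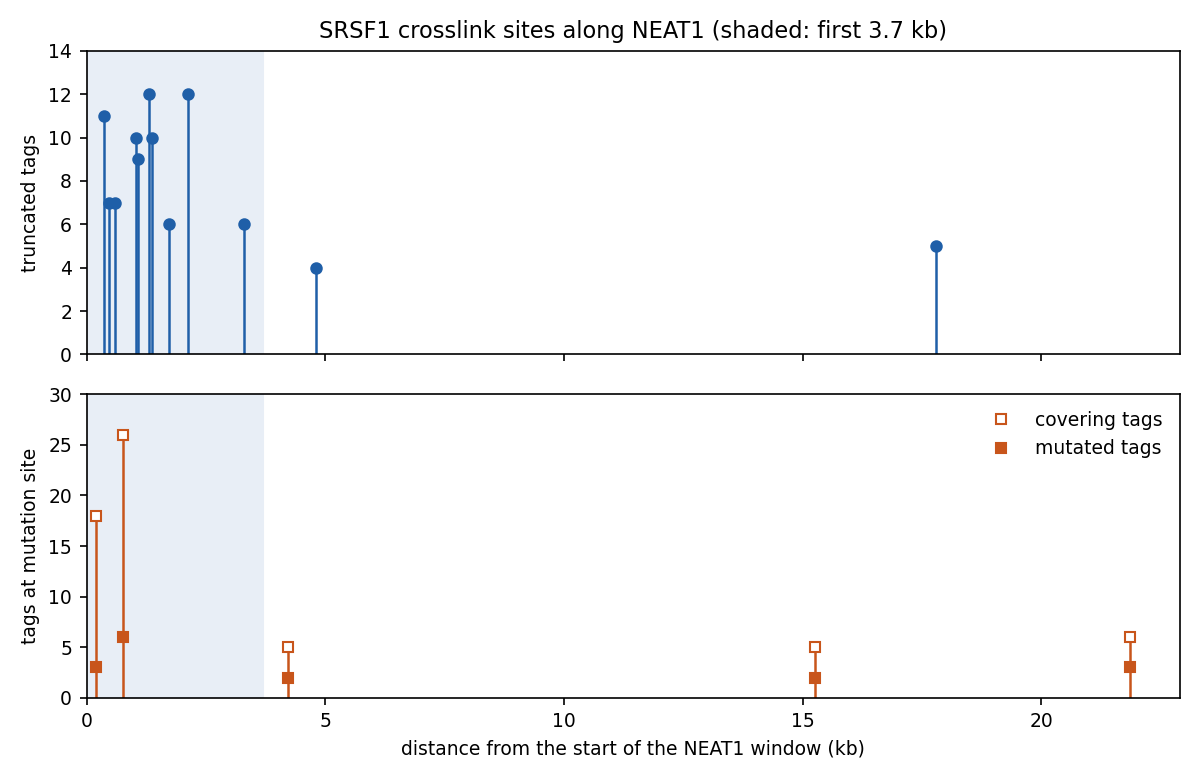
Each listed SRSF1 site along NEAT1, by distance from the start of the window in kb. The upper panel gives truncated tags at the 12 truncation sites, and the lower panel gives covering (open) and mutated (filled) tags at the 5 mutation sites. All sites with 6 or more truncated tags, or with 18 or more covering tags, lie in the shaded first 3.7 kb.

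The strongest truncation sites of NEAT1 were a pair with 12 truncated tags each. One lay at chr11:65191492-65191512, 1302 nt into the window, where, by the authors' values, 0.47 tags were expected per position of its tag cluster (deposited P-value 7.1e-10). The other lay at chr11:65192311-65192331, with 0.69 expected (deposited P-value 7.07e-09). The next had 11 tags against 0.42 expected (deposited P-value 5.98e-09) at chr11:65190558-65190578, 368 nt into the window and the most 5′ of the truncation sites. With 12 tags, a site stood above 87.3% of all truncation sites in the list, so NEAT1's strongest sites were in the upper part of the list but not at its top, which reached 42 tags. The other 7 truncation sites of the first stretch had 6 to 10 tags.

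Within the first stretch the truncation sites shared tag clusters, read here as sites with the same number in the authors' names. The 10 sites lay in 5 clusters, of which one, 1035 to 1362 nt into the window, held 4 sites with 10, 9, 12 and 10 tags. Another, from 368 to 593 nt, held 3 sites with 11, 7 and 7 tags. Clusters with 3 or more truncation sites were rare in the list as a whole, 52 of 4370 (1.19%), and those with 4 or more numbered 21 (0.481%). NEAT1 was picked because it held many sites, so this contrast with the list is a description. Neighbouring sites within these NEAT1 clusters were 34 to 233 nt apart, with a median of 109 nt over 5 gaps. The other 3 clusters held 1 site each, at 1719, 2121 and 3288 nt.

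The 2 truncation sites of the long-isoform stretch were weak. The site at chr11:65194998-65195018 had 4 tags, the lowest number the list contains (deposited P-value 0.00062). The site at chr11:65207981-65208001 had 5 (deposited P-value 2.7e-05). Both stood in clusters with 0.10 expected tags per position, against 0.20 to 0.69 (median 0.445) at the first-stretch sites. The truncated tags of the 2 stretches did not overlap: 6 to 12 in the first and 4 to 5 in the rest. Of all listed truncation sites, 35.6% had fewer than 6 tags. No listed site with 4 tags had over 0.12 expected, and none with 5 tags had over 0.26. Most first-stretch sites lay above both values, so this separation is set in part by what the list admits. The ratio of truncated to expected tags went the other way, 16.7 to 30 in the first stretch and 40 and 50 in the rest. Since every listed site has at least 4 truncated tags, a site in a shallow cluster is listed only if its ratio is high, and the order of these ratios is set in part by that minimum.

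**Figure D2:**
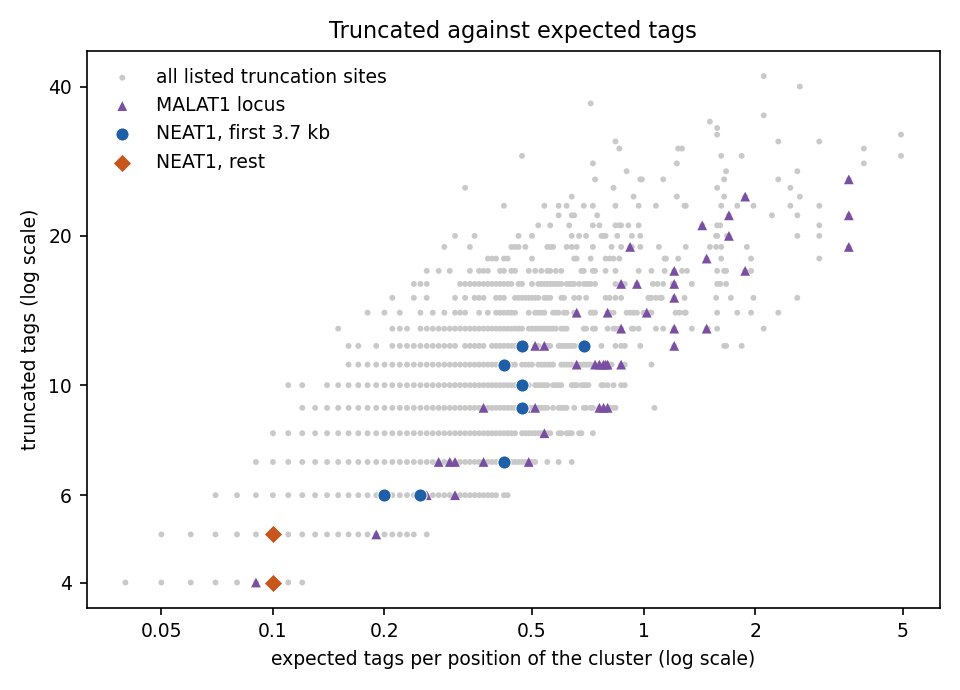
Truncated tags (log scale) against the tags expected per position of the cluster (log scale) for all listed truncation sites, the MALAT1 locus and the 2 stretches of NEAT1; points with equal values coincide. The first-stretch sites of NEAT1 lie at 0.20 to 0.69 expected tags, and its other 2 sites at 0.10 with 4 and 5 truncated tags.

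The mutation sites of NEAT1 followed the same order of depth. In the first stretch, the site at chr11:65190945-65190965 had 6 mutated of 26 covering tags (23.1%), and the site at chr11:65190382-65190402 had 3 of 18 (16.7%). The latter was the most 5′ site of all, 192 nt into the window. In the rest, the site at chr11:65194404-65194424 had 2 mutated of 5 covering tags. The site at chr11:65205453-65205473 had the same, and the one at chr11:65212056-65212076 had 3 of 6. Coverage in the 2 stretches did not overlap, and 26 covering tags exceeded 91.5% of the mutation sites in the list while 5 exceeded 48.8%. The mutated share was higher in the rest (40 to 50%) than in the first stretch, but no mutation site is listed with under 2 mutated tags, which at 5 covering tags allows no lower share than was seen there.

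Truncation and mutation sites of NEAT1 did not coincide. None of the 5 mutation sites had a truncation site within 50 nt, a share of 0% with an exact Clopper-Pearson 95% interval of 0 to 52.2%. The 2 mutation sites of the first stretch were 176 and 162 nt from the nearest truncation site, and those of the rest were 594, 2528 and 4075 nt away. Truncation sites were 83.3% of the first stretch (51.6 to 97.9%, 10 of 12) and 40% of the rest (5.27 to 85.3%, 2 of 5). The difference between the 2 shares did not pass a two-sided Fisher's exact test (p = 0.117, Benjamini-Hochberg adjusted over 3 such tests 0.350). The kinds in NEAT1 as a whole, 70.6% truncation sites, stood beside 70.0% in the rest of the list (Fisher's exact p = 1, adjusted p = 1), and 17 sites leave an interval of 44.0 to 89.7%.

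A long part of the long isoform held no listed site. After the truncation site at 4808 nt, the next site of either kind was the mutation site at 15263 nt, a gap of 10455 nt. In bins of 1 kb, 8 of 23 held a site, and 5 of these were the first 5 bins. The 10 bins from 5 to 15 kb were empty, and the 8 bins from 15 kb to the end held 3 sites. The window's minus strand held 0 sites. On the plus strand, the nearest listed site 5′ of the window was 1063 kb away, and the nearest on the 3′ side was 53.4 kb away, at the start of the MALAT1 locus, which encodes another abundant nuclear noncoding RNA.

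The numbers in the truncation names went on advancing through the long-isoform stretch. Each such number was read as that of a tag cluster, a meaning the labels do not state. On chromosome 11 plus strand these numbers never decreased (0 decreases among truncation sites). The advance from one number to another was therefore read as the clusters numbered on the way. From the first to the last truncation site of the first stretch, the number advanced from 6223 to 6248 over 2920 nt, or by 8.56 per kb. From there to the last truncation site of the window it advanced to 6346 over 14503 nt, or by 6.76 per kb. A truncation site was listed for 5 of the 26 numbers from 6223 to 6248, both included (19.2%), and for 2 of the 98 numbers after them (2.04%), against at most 0.949% over the whole chromosome strand. In the interval between the last 2 truncation sites, which contains the long gap, 83 numbers were passed. These segments begin and end at listed sites, the width of a cluster is not given, and deep clusters may merge, so a number per kb is not a tag density.

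The mutation names carry a second numbering, which also never decreased on this strand. Split at the first mutation site beyond the first stretch, it advanced from 594 to 635 over 4022 nt, 10.2 numbers per kb. From 635 to 657, over the next 17652 nt, it advanced by 1.25 per kb. Split at the last mutation site of the first stretch instead, as the truncation numbers were, it advanced from 594 to 610 over 563 nt, 28.4 per kb. From 610 to 657, over 21111 nt, it advanced by 2.23 per kb. What these numbers count is not explained by the labels.

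**Figure D3:**
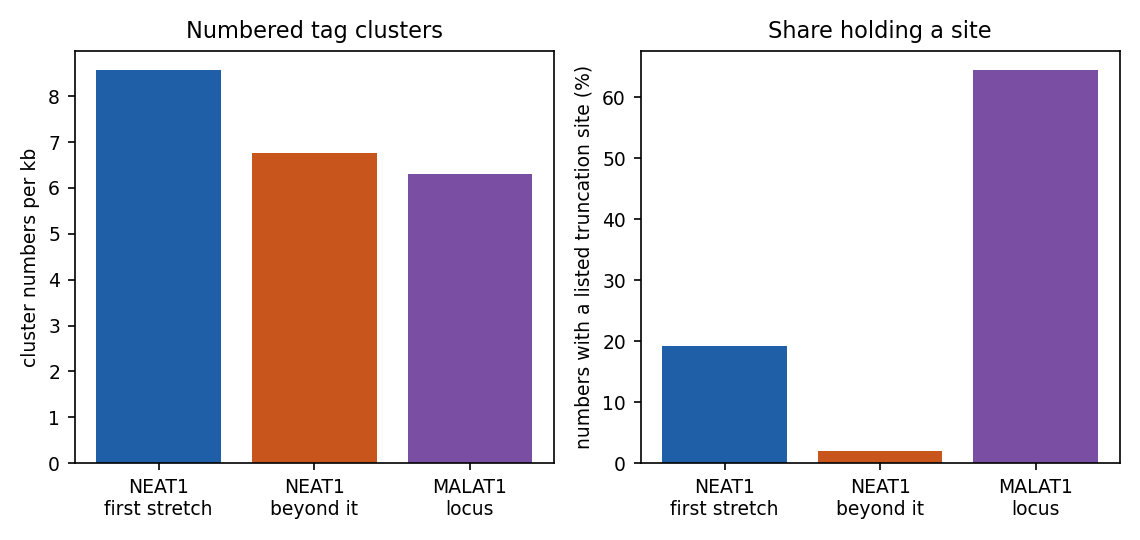
Left, advance of the cluster number per kb between the first and last truncation site of each segment (for NEAT1 beyond the first stretch, from its last truncation site onward). Right, the percentage of those numbers with a listed truncation site. The cluster numbers per kb lie between 6.29 and 8.56, while the share holding a site is 19.2% in the first stretch, 2.04% beyond it and 64.4% in the MALAT1 locus.

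Joining sites at most 1000 nt apart split NEAT1 into 5 loci. The first, chr11:65190382-65192331, held 11 sites in 1950 nt, 9 of them truncation sites, and 11 of the 5199 loci of the list had more sites. The second, chr11:65193478-65195018, held 3 sites and spanned the end of the first stretch. The other 3 loci were single sites.

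Set beside the MALAT1 locus (chr11:65266526-65273537), the first stretch of NEAT1 had fewer and shallower sites. The MALAT1 locus held 85 sites in 7012 nt, or 12.1 per kb, against 3.24 per kb. Its 58 truncation sites lay in 29 clusters, beside 10 in 5 clusters in the first stretch of NEAT1. The median truncation site of the MALAT1 locus had 11 tags and 0.785 expected, against 9.5 and 0.445 in the first stretch of NEAT1, and the ranges overlapped. Coverage of its mutation sites had a median of 73 tags (23 to 369), above the 18 and 5 to 6 tags at 4 of the 5 NEAT1 mutation sites and overlapping the fifth. At MALAT1, 20 of 27 mutation sites (74.1%, 53.7 to 88.9%) had a truncation site within 50 nt, against 0 of 5 in NEAT1 (0 to 52.2%). Depth and the number of truncation sites moved with this share, and their part in it was not tested. Truncation sites were 68.2% of the sites at MALAT1, and the difference from NEAT1 did not pass the test (Fisher's exact p = 1, adjusted p = 1). The MALAT1 locus was bounded by its own sites and chosen for having the most on this strand, so its density is a description.

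GGAGA and GGAGGA were also denser in the first stretch of the RNA than in the rest. Both words are mostly guanine, a base that made up 30.1% of the first stretch and 22.4% of the rest. The part of guanine content in these densities was not tested. On the RNA strand of NEAT1-202, GGAGA occurred 26 times, 11 of them in the first 3.7 kb, which is 2.97 per kb against 0.788 per kb in the rest. GGAGGA occurred 15 times, 8 of them in the first stretch, or 2.16 against 0.368 per kb; 1 pair of matches of the 2 words overlapped. In 5 consecutive windows of 3.7 kb from the rest, GGAGA occurred 0 to 5 times and GGAGGA 0 to 3 times. Read on the opposite strand, GGAGA occurred 1 time in the first stretch and 21 times in the rest, and GGAGGA 2 and 9 times (0.541 and 0.473 per kb). Among the first 3.7 kb of 321 other lincRNA genes with a transcript that long, 98.1% held GGAGA (median 6 matches) and 84.1% held GGAGGA (median 2). At least as many matches as in NEAT1 were found in 11.2% of them for GGAGA and 1.87% for GGAGGA. The MALAT1 transcript, counted over all its 8708 nt, held 1.84 GGAGA and 0.345 GGAGGA per kb, both below the first stretch of NEAT1. Against the rest of NEAT1, its GGAGA was denser and its GGAGGA slightly less dense. The short word GGA was also below the first stretch, 19.4 per kb in MALAT1 against 25.7. Of the other words searched, GAAGAA and GAAGGA went the other way. MALAT1 held 1.03 and 1.26 of them per kb, against 0.541 each in the first stretch of NEAT1. These counts set a whole transcript beside part of another, and the 2 RNAs differed in tags at their listed sites. The part of these words in the site density of the 2 RNAs was not tested.

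The other words searched either had at most 2 matches in the first stretch or, for the shortest, occurred throughout. GAAGAA, a classical exonic enhancer word, occurred 2 times in the first stretch and 5 times in the rest (0.541 and 0.263 per kb), and 82.6% of the other lincRNA stretches held it. GAAGGA occurred 2 and 8 times, and 79.1% held it. CACACGA and AGAAGAAC had 0 matches on the RNA strand, and 3.43% and 8.41% of the other stretches held them. The short word GGA, which lies within several of these, occurred 25.7 times per kb in the first stretch and 13.7 in the rest, and 100% of the other stretches held it. The 7 words overlap in part, were looked at with the sites known, and are descriptions of the sequence, not binding sites.

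**Figure D4:**
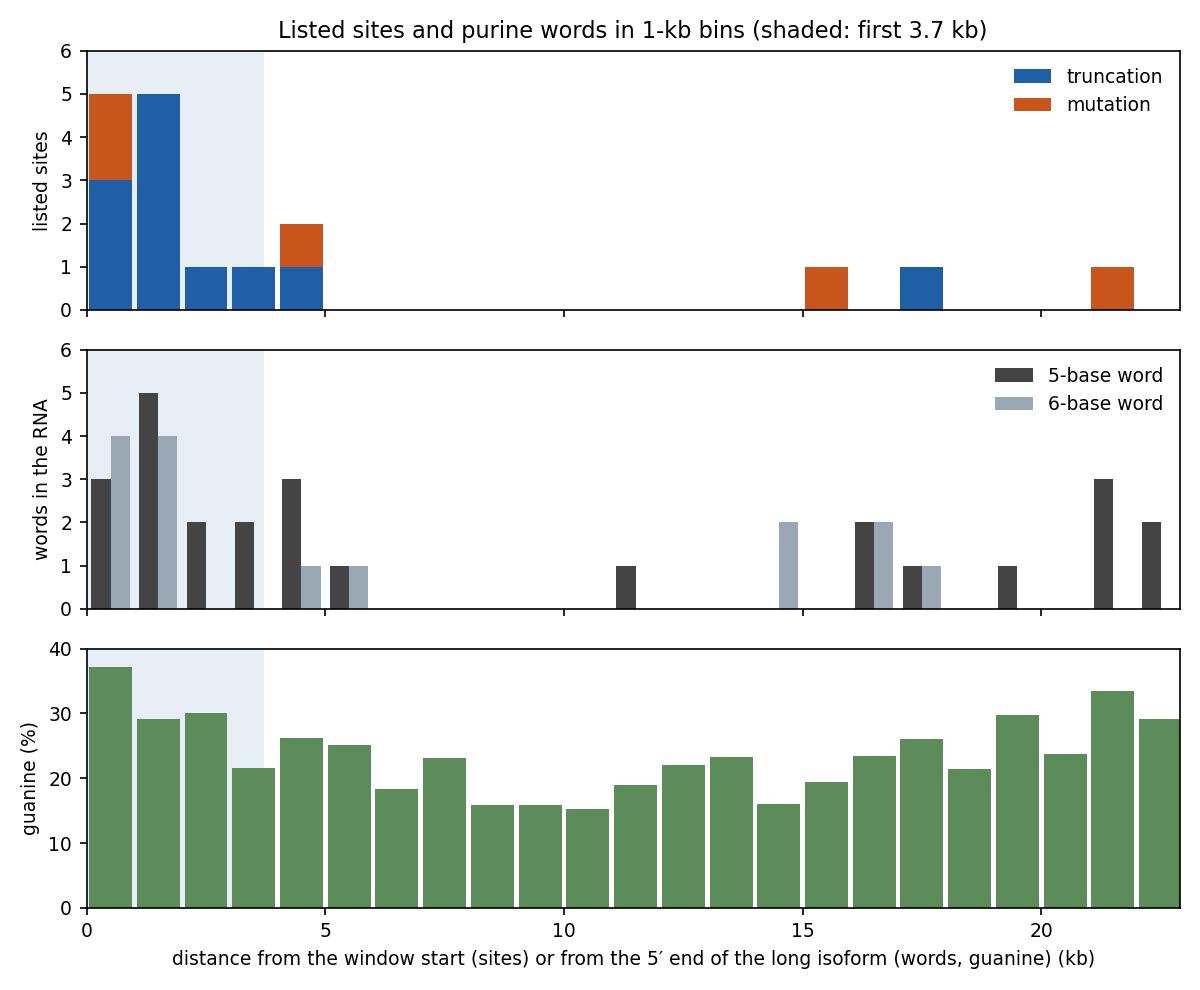
Listed sites per 1-kb bin of the window (top), matches to GGAGA (5-base word) and GGAGGA (6-base word) per 1-kb bin of the long isoform (middle), and its guanine content (bottom, the last bin being shorter). The 3 rows are each counted from their own start and are aligned only to within the difference between the window and the transcript. The 10 bins from 5 to 15 kb hold 0 sites, 2 GGAGA and 3 GGAGGA.

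By these bins, the first 5 kb of the RNA held 15 GGAGA and 9 GGAGGA for 14 sites. The 10 kb from 5 to 15 kb held 2 and 3 for 0 sites. The remainder held 9 and 3 for 3 sites. GAAGAA did not have this order, with 2, 2 and 3 matches in the same 3 parts. The other words searched were not counted by bin. With 3 such parts of 1 RNA, the part of sequence in the placing of the sites was not tested. The 2 truncation sites beyond the first stretch also had fewer expected tags per position than those within it. Between listed sites that value is not given.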

How the data were processed

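From the 2 libraries the authors made 1 list of sites on hg19, with cutadapt and BWA 0.7 among the tools per the submitters' processing notes. Settings, duplicate handling, multiply mapping reads and replicate pooling are not described in the labels. In that list the authors deposited a count per site, which is the truncated or the mutated tags, together with expected tags and a P or with covering tags inside each site's name; these names follow the CTK toolkit and their meaning is not stated in the labels. Counts were therefore compared within a kind. Positions are 1-based. Computed here, with Python 3.11.15, pandas 2.3.3 and SciPy 1.17.1, were site counts in the first 3700 nt of the window and in the remaining 19201 nt, exact Clopper-Pearson 95% intervals, 3 Fisher's exact tests with Benjamini-Hochberg adjustment, and word counts in GENCODE release 29 transcripts. The counting was tested on simulated data. The members, comparisons and words were chosen with earlier results of these data known. Above 15 sites, the rule named the 3 highest of each kind in each stretch and the sites around the longest gap; other sites were described after their values were seen. Genes of 12 paraspeckle proteins were not counted, since no hg19 annotation was used here. Alternatives moved the boundary by 0.5 kb, kept stricter sites, merged sites within 50 nt, and changed the distances for neighbours and loci.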

Additional observations from a re-analysis of the deposited data

How the results depend on the processing

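No paired analysis was possible because both replicates belong to 1 group and were pooled in the list, and for the same reason no replicate could be left out. Keeping only truncation sites with P at most 1e-05 and mutation sites with at least 3 mutated tags left 9 sites in place of 17, 8 of them in the first stretch and 1 in the rest; the share of truncation sites in the rest then became 0%, from 1 site, in place of 40%. The density ratio between the stretches, 12.5, was 41.5 (interval 5.57 to 1842) with these sites, 11.3 and 10.7 with the boundary moved 0.5 kb earlier or later, and 11.4 after merging. The adjusted Fisher p for the kinds, 0.350, ran from 0.350 to 0.840. The shorter distances set for mutation sites near a truncation site (25 nt, 10 nt, overlapping intervals) lie inside the 50 nt limit and could give no other count than 0 of 5. NEAT1 formed 7 or 4 loci with joining gaps of 500 or 2000 nt in place of 5. Each listed site of the long-isoform stretch rests on at most 6 tags, and the depth between listed sites is not known.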

Other observations

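The base composition of the long NEAT1 isoform changed along its length. Guanine made up 30.1% of its first 3.7 kb and 22.4% of the rest, and in bins of 1 kb it was highest at 37.2% in the first bin and lowest at 15.3% in the bin starting at 10 kb. It lay between 21.6 and 37.2% in the bins of the first 5 kb, which held 14 listed sites. From 5 to 15 kb it lay between 15.3 and 25.2%, with 0 sites, and from 15 kb to the end between 19.4 and 33.4%, with 3 sites. Its part in the placing of the sites was not tested.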
